A study of Mus musculus with 12 samples.

Results

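Hsd3b5, Slco1a1, Cyp4a12a, Cyp4a12b, Mup20, Serpina4-ps1 and Serpina9 are genes of the male mouse liver, followed here over 6 weeks of a diet that causes steatohepatitis. They were picked by name with earlier results of the same arrays in view, so their diet differences are a description and carry no test. All 7 were measured, by 8 probes, among 13898 genes that could be read.

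The livers came from male C57BL/6NJcl mice, and 12 one-colour Agilent arrays were used, 2 per group. The CDAHFD groups ate a high-fat diet that is choline-deficient and L-amino acid-defined, with 60 kcal% fat and 0.1% methionine, and they were sampled after 1, 2 and 6 weeks, at 7, 8 and 12 weeks of age. Choline is needed by the liver to export fat. The control groups, of the same ages, ate CE-2, a standard chow, so the diets differ in more than choline and methionine. The labels give no genetic change in any group and do not say that the 2 arrays of a group held different mice, so p-values here reflect the spread from array to array, which could be technical.

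In male rodents the pituitary releases growth hormone in pulses, and in females more continuously. In hepatocytes each pulse switches on the kinase JAK2 and then the transcription factor STAT5b, which keeps male-typical liver genes on and female-typical ones off. Hsd3b5, Slco1a1, Cyp4a12a, Cyp4a12b and Mup20 are known for being higher in male than in female mouse liver, while background of that kind is not given here for the 2 serpins. No hormone was measured in the data used here, so the pulses themselves were not seen.

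Of the 7 genes, 2 matched a promoter in the RefSeq table used here (assembly GRCm38.p6, 250 bases before to 50 after the gene start, 300 bases). Both promoters are shown, to give the sequence upstream of genes described below. The strand is minus for both, written 5′ to 3′ in the gene's direction, and capitals mark TATAAA read on the opposite strand.
Hsd3b5, chr3:98645485-98645784: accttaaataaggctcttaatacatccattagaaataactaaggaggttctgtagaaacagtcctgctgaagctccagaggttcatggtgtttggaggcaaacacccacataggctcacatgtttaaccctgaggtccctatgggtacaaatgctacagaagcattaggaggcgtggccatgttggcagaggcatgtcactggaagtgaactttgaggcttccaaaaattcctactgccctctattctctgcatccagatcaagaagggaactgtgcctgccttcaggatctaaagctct
Slco1a1, chr6:141946913-141947212: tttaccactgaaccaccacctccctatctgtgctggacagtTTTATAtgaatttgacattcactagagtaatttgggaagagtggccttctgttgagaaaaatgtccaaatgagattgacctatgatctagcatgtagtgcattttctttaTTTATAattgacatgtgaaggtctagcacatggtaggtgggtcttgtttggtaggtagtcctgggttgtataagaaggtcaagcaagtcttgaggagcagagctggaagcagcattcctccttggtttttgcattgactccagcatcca

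Both strands were searched for STAT5 (TTCNNNGAA), HNF6 (ATTGAT), HNF1 (GTTAAT) and the TATA box (TATAAA). In the Slco1a1 window TATAAA was found on the opposite strand, starting 209 and 99 bases before the gene start, and the other motifs were not found there; the 2 matches do not overlap. The Hsd3b5 window held none of the 4 sets of letters. Of 32851 promoters of the same length, 8.3% held the STAT5 letters, 7.54% the HNF6 letters, 7.1% the HNF1 letters and 13.6% TATAAA.

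Levels below are log2 of a probe's processed intensity minus its array's 75th percentile, taken over the probes above background on all arrays. Levels of different genes come from different probes and are not set against each other. Differences are CDAHFD minus control of the same week, minus the median of all genes (0.13, 0.05 and 0.03 at 1, 2 and 6 weeks), with the standard error (SE) of a fit over all 12 arrays. Of all probes, 45.4% to 49.6% were well above background on the CDAHFD arrays and 40.4% to 44.4% on the control arrays. The 8 arrays of 1 and 2 weeks were on slide 1 and the 4 arrays of 6 weeks on slide 2, so each diet comparison lies within 1 slide, while 6 weeks and the slide cannot be told apart.

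Of the arrays, 2 need care. Control replicate 1 at 1 week had 228 spots far dimmer than on every other array, and its gap to replicate 2 had a standard deviation of 0.85 over all genes, against 0.29 to 0.49 in the other groups. None of the 7 genes was read by such a spot (0 of 7). The 2 CDAHFD arrays at 6 weeks differed in several of these genes, so each array is given.

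The 7 genes fell into 3 courses. Hsd3b5, Slco1a1, Serpina4-ps1 and Serpina9 were lower at each later week of the diet. Cyp4a12a and Cyp4a12b were as low at 1 week as at 6 weeks. Mup20 was furthest below the control at 1 week, by a size that depended on the scaling. For Serpina9 the step from 2 to 6 weeks rests on CDAHFD replicate 1 at 6 weeks, which was below background: the 2-week difference was -3.61, and the 6-week one was -3.35 without that array. The median of the 7 differences was -1.10, -2.69 and -3.45 at 1, 2 and 6 weeks, where the 5th percentile of all genes was -1.05, -0.99 and -1.04. Both CDAHFD arrays lay below both control arrays for 6, 7 and 7 of the 7 genes at 1, 2 and 6 weeks, a pattern that 30.4%, 32.4% and 32.7% of all genes had. All but Serpina4-ps1 had it at every week, as did 16.6% of all genes. Since the 7 were chosen with these values in view, those counts say nothing further about them.

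**Figure D1:**
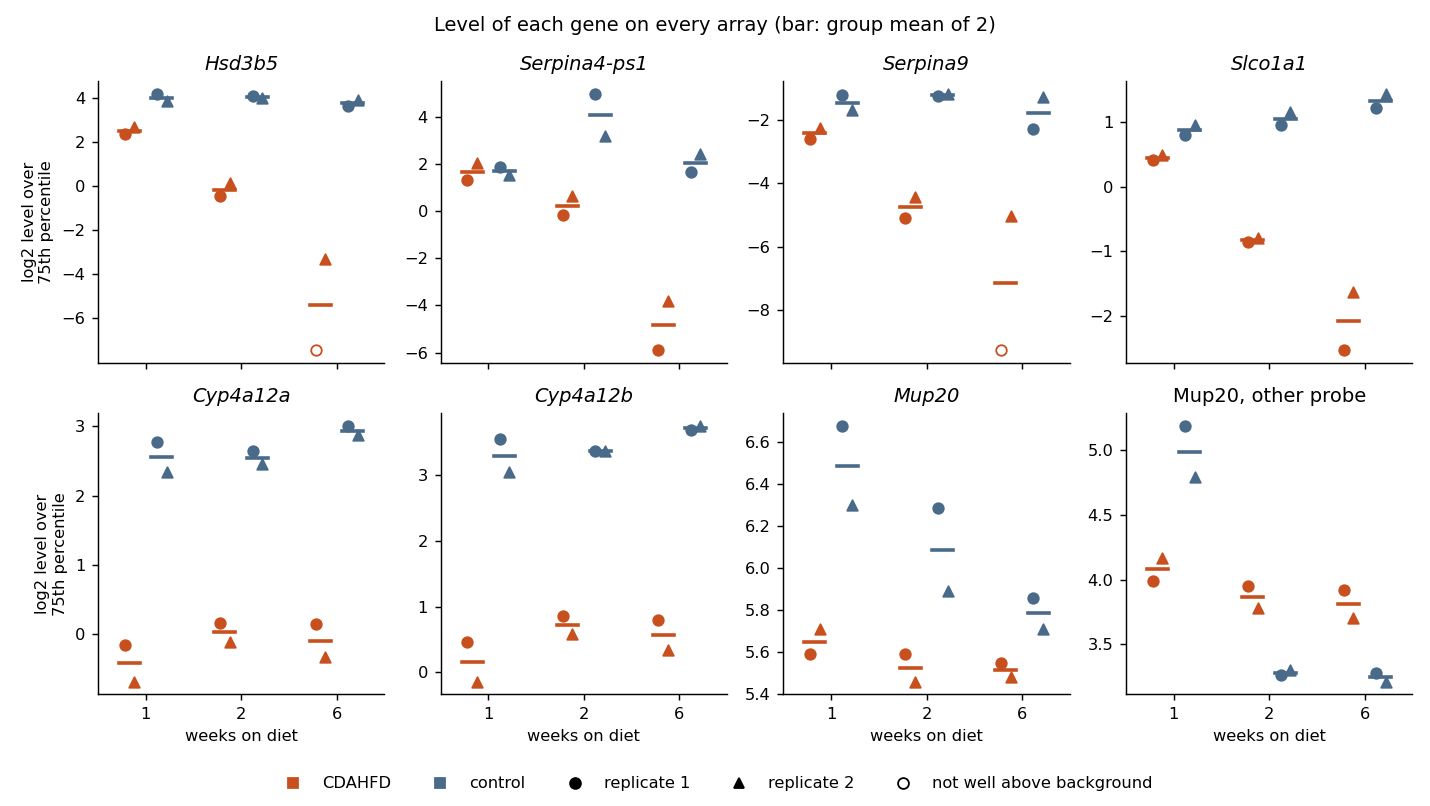
Level of each gene on every array, as log2 over the array's 75th percentile (vertical axis, its own range in each panel), against weeks on diet (horizontal axis). Orange is CDAHFD and blue is control, circles are replicate 1 and triangles replicate 2, bars are group means of 2, and open symbols are arrays where the probe was not well above background. Hsd3b5 and Serpina9 are each open on 1 array, CDAHFD replicate 1 at 6 weeks, and the 2 probes of Mup20 take opposite sides of the control at 2 and 6 weeks.

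Hsd3b5 encodes a steroid dehydrogenase of the 3-beta family that works as a 3-ketosteroid reductase in male mouse liver. At 1 week its level was 2.34 and 2.66 on the CDAHFD arrays, against 4.17 and 3.83 on the control arrays. At 2 weeks it was -0.47 and 0.14 on the CDAHFD arrays, against 4.05 and 3.96 on the control arrays. The 2 groups were apart at both weeks, with replicates close together, and the CDAHFD level was lower at 2 weeks than at 1 week on both arrays. At 6 weeks it was -7.42 on CDAHFD replicate 1, which was not well above background, and -3.32 on replicate 2, against 3.64 and 3.88 on the control arrays. The 2 control arrays stayed between 3.64 and 4.17 at all 3 weeks, so the differences of -1.63, -4.23 and -9.17 (SE 1.18) followed the CDAHFD arrays. That SE is shared by all weeks. The standard deviation was 2.9 in the CDAHFD group at 6 weeks and between 0.07 and 0.43 in the other groups.

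In linear terms Hsd3b5 was at 32.2% of the control at 1 week, 5.35% at 2 weeks and, as measured, 0.174% at 6 weeks. The last value rests on an array where the probe could only be bounded. With that array set to the lowest signal called above background there, the group was 504-fold lower (difference -8.98). Taken alone, CDAHFD replicate 1 was at least 1830-fold below the control mean and replicate 2 was 138-fold below it. Without replicate 1 the difference was -7.15, and without replicate 2 it was -11.20, so both arrays were far below the control while the size depended on which was used.

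Cyp4a12a and Cyp4a12b are neighbouring cytochrome P450 genes on chromosome 4 whose products hydroxylate fatty acids, arachidonic acid among them, at the omega end. At 1 week Cyp4a12a was at -0.16 and -0.69 on the CDAHFD arrays, against 2.78 and 2.34 on the control arrays. At 2 weeks it was at 0.16 and -0.11 on the CDAHFD arrays, against 2.65 and 2.45 on the control arrays. At 6 weeks it was at 0.14 and -0.34 on the CDAHFD arrays, against 3.01 and 2.87 on the control arrays. The groups were far apart at every week. Among the CDAHFD arrays, both at 2 weeks were above both at 1 week, and the arrays at 6 weeks overlapped those of either earlier week.

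Cyp4a12b had the same order of arrays. Its level was 0.46 and -0.14 on the CDAHFD arrays at 1 week, against 3.55 and 3.04 on the control arrays. It was 0.86 and 0.59 on the CDAHFD arrays at 2 weeks, against 3.36 on each control array, and 0.79 and 0.34 on the CDAHFD arrays at 6 weeks, against 3.69 and 3.75 on the control arrays. The differences were -3.27, -2.69 and -3.19 (SE 0.23), beside -3.12, -2.57 and -3.08 (SE 0.22) for Cyp4a12a. At 6 weeks they left 10.9% of the control level of Cyp4a12b and 11.9% of that of Cyp4a12a. The 2 genes are near-identical copies, so each probe may read both, and they are not 2 independent observations.

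Slco1a1 encodes OATP1A1, a transporter that takes organic anions, bile acids and steroid conjugates from blood into hepatocytes. At 1 week its level was 0.41 and 0.49 on the CDAHFD arrays, against 0.80 and 0.95 on the control arrays. At 2 weeks it was -0.86 and -0.79 on the CDAHFD arrays, against 0.95 and 1.16 on the control arrays. At 6 weeks it was -2.53 and -1.63 on the CDAHFD arrays, against 1.22 and 1.44 on the control arrays. The groups were apart at each week, narrowly at 1 week. The differences of -0.56, -1.93 and -3.45 (SE 0.23) left 67.9%, 26.3% and 9.17% of the control level. The smallest of them, at 1 week, was -0.42 after quantile normalization and -0.18 after normexp.

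Mup20, also called darcin, is a major urinary protein that male mice make in the liver and excrete as a pheromone. The brighter of its 2 probes was at 5.59 and 5.71 on the CDAHFD arrays at 1 week, against 6.68 and 6.30 on the control arrays. It was at 5.59 and 5.46 on the CDAHFD arrays at 2 weeks, against 6.29 and 5.89 on the control arrays, and at 5.55 and 5.48 on the CDAHFD arrays at 6 weeks, against 5.86 and 5.71 on the control arrays. The CDAHFD level barely moved over the weeks, and the control level was lower at each later week. The differences were therefore smaller each time, at -0.97, -0.62 and -0.31 (SE 0.16). After quantile normalization they were -0.04, 0.09 and 0.19. The 1-week difference of Mup20 was then nearly gone, and its direction at 2 and 6 weeks depends on the scaling. Before scaling, the 1-week intensities were 92420 and 93630 on the CDAHFD arrays, against 87860 and 103100 on the control arrays.

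The other Mup20 probe gave a different account. It read 3.99 and 4.17 on the CDAHFD arrays at 1 week, against 5.19 and 4.79 on the control arrays, a difference of -1.04 (SE 0.14). At 2 weeks it read 3.95 and 3.78 on the CDAHFD arrays, against 3.26 and 3.30 on the control arrays, and at 6 weeks 3.92 and 3.70 on the CDAHFD arrays, against 3.28 and 3.21 on the control arrays. The groups did not overlap at any week, but the CDAHFD arrays were lower at 1 week and higher at 2 and 6 weeks (difference 0.53 at both). Major urinary protein genes are a family of near-identical copies, and which of them each probe reads was not tested. With the mean of both probes the Mup20 difference at 6 weeks was 0.11.

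Serpina4-ps1 is annotated as a pseudogene of the serpin family of protease inhibitors. At 1 week its level was 1.29 and 2.01 on the CDAHFD arrays, against 1.86 and 1.52 on the control arrays, and the groups overlapped. At 2 weeks it was -0.17 and 0.62 on the CDAHFD arrays, against 4.96 and 3.19 on the control arrays. At 6 weeks it was -5.88 and -3.82 on the CDAHFD arrays, against 1.65 and 2.43 on the control arrays. This gene had the latest start of the 7: no separation at 1 week, and full separation from 2 weeks on. Its differences were -0.17, -3.90 and -6.93 (SE 0.85), the last of them 122-fold. The control mean was 1.69, 4.07 and 2.04 at 1, 2 and 6 weeks, and the CDAHFD mean was 1.65, 0.22 and -4.85. The 2-week difference thus held both a higher control level and a lower CDAHFD level than at 1 week. The control arrays were themselves spread, and at 2 weeks the difference was -3.01 without control replicate 1 and -4.80 without control replicate 2.

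Serpina9 encodes another serpin, known in human from germinal centre B cells. Its level was -2.59 and -2.27 on the CDAHFD arrays at 1 week, against -1.21 and -1.70 on the control arrays. At 2 weeks it was -5.09 and -4.44 on the CDAHFD arrays, against -1.25 and -1.18 on the control arrays. At 6 weeks it was -9.26 on CDAHFD replicate 1, not well above background, and -5.05 on replicate 2, against -2.28 and -1.27 on the control arrays. The groups were apart at each week. Both CDAHFD arrays at 2 weeks were below both at 1 week, while those at 2 and 6 weeks overlapped. The differences were -1.10, -3.61 and -5.42 (SE 1.23), and the last was -4.31 with replicate 1 set to the lowest signal called above background. Here too the SE is shared by all weeks. The standard deviation was 2.97 in the CDAHFD group at 6 weeks and between 0.05 and 0.71 in the other groups. Alone, replicate 1 was at least 39.5-fold below the control mean, and without that array the difference was -3.35.

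**Figure D2:**
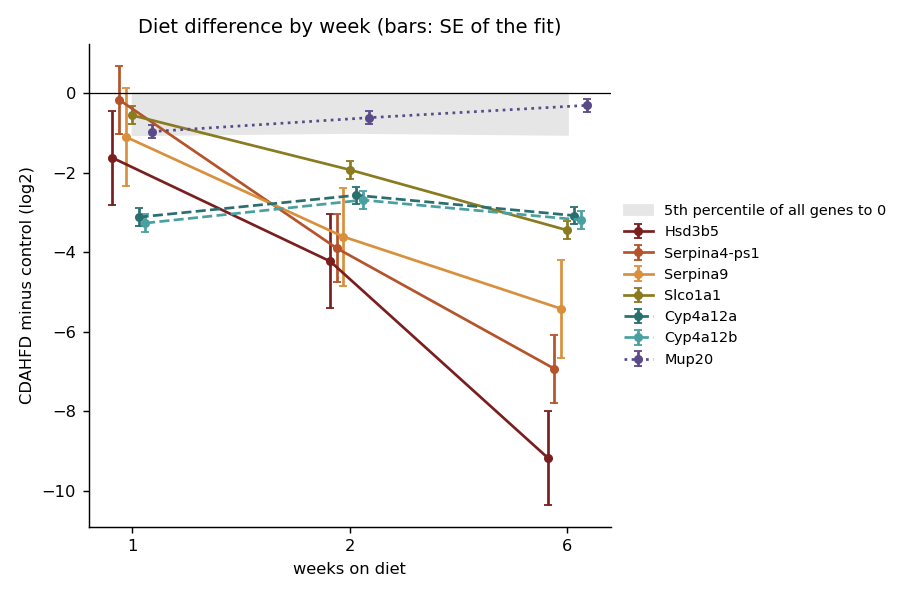
Diet difference of each of the 7 genes (vertical axis, log2, CDAHFD minus control, less the all-gene median) against weeks on diet (horizontal axis), with bars for the SE of the fit and a grey band from 0 to the 5th percentile of all genes. Hsd3b5 reaches -9.17 and Serpina4-ps1 -6.93 at 6 weeks, Cyp4a12a and Cyp4a12b (dashed) stay between -3.27 and -2.57, and Mup20 (dotted) moves from -0.97 at 1 week to -0.31 at 6 weeks.

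Because the tissue is whole liver, fewer hepatocytes and less RNA per hepatocyte cannot be told apart. Of 9 measured hepatocyte markers, 8, 7 and 3 passed the test as lower at 1, 2 and 6 weeks and 0 as higher, with medians of -1.01, -0.73 and -0.40. Those 3 at 6 weeks were Cps1 (-0.90), Fgb (-0.52) and Ahsg (-0.50), while albumin (Alb) was at -1.30, -0.22 and -0.03 (SE 0.18). The marker Hnf4a was at -0.78 and -0.54 at 1 and 2 weeks. After quantile normalization it was at -0.15 and -0.09, and both calls were lost, so these depend on the scaling. The other hepatocyte markers were not followed under other scalings. Of 10 macrophage markers 6, 8 and 8 passed as higher and 1, 0 and 0 as lower, and of 10 stellate cell markers 8 passed as higher at each week. The macrophage marker lower at 1 week was Itgam (-1.09), whose other probe read 0.84, 2.16 and 1.54. Csf1r passed as higher at 2 and 6 weeks (1.11 and 1.07). Its other probes read 0.51, 1.48 and 1.31, and -0.51, -0.23 and -0.49. Of 7 bile duct markers 1, 1 and 3 passed as higher, with a median of 1.15 at 6 weeks. Of 8 sinusoidal endothelial markers 1, 2 and 2 passed as higher and 0, 0 and 5 as lower, with a median of -0.64 at 6 weeks. Of all genes, 25.9%, 22.9% and 24.5% passed as higher and 15%, 14.9% and 16.2% as lower. The part of these cell types in the 7 differences was not tested.

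Leaving out control replicate 1 at 1 week gave 1-week differences of -1.46 for Hsd3b5, -0.63 for Slco1a1, -2.89 for Cyp4a12a, -3.01 for Cyp4a12b, -0.77 for Mup20 and -0.85 for Serpina9. Serpina4-ps1 was then at 0.01. Hsd3b5, Slco1a1, Serpina4-ps1 and Serpina9 were thus nearer the control at 1 week than later also without that array.

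The 2 CDAHFD arrays at 6 weeks were set against each other. Replicate 1 was lower than replicate 2 by 4.20 for Serpina9, 4.10 for Hsd3b5, 2.06 for Serpina4-ps1 and 0.91 for Slco1a1, on the log2 scale. For the first 2 of these genes replicate 1 was below background, so the gap is not a measured size. In contrast, replicate 1 was higher by 0.48 for Cyp4a12a, 0.44 for Cyp4a12b and 0.07 for Mup20. From the 1st to the 99th percentile, all genes had a gap between -1.42 and 1.28, so 3 of the 7 lay outside that range and 4 inside it.

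**Figure D3:**
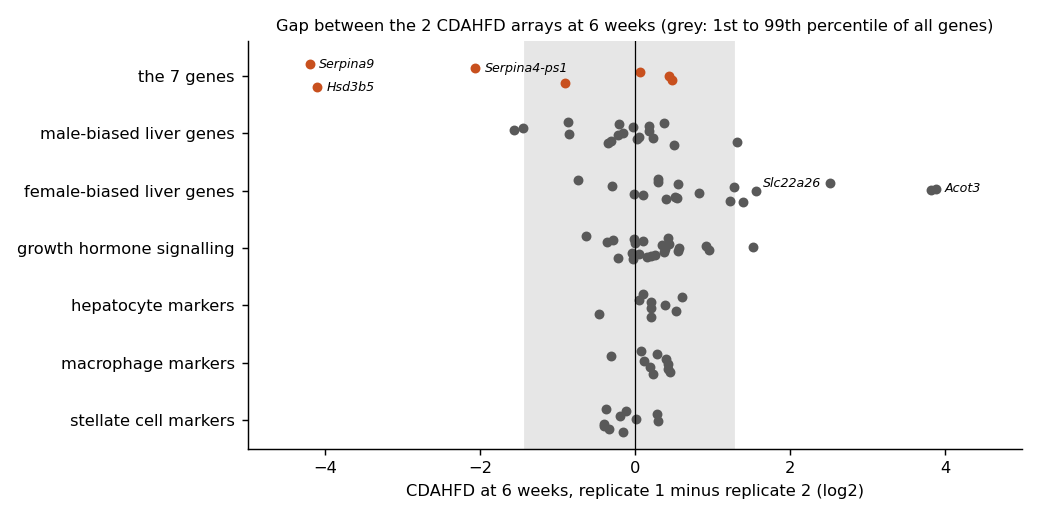
Gap between the 2 CDAHFD arrays at 6 weeks, replicate 1 minus replicate 2 in log2 (horizontal axis), for the 7 genes in orange and 6 gene lists in grey, each dot a gene. The grey band holds the gaps from the 1st to the 99th percentile of all genes, -1.42 to 1.28. Serpina9, Hsd3b5 and Serpina4-ps1 lie left of the band, and genes of the female-biased list, Acot3 and Slc22a26 among them, lie right of it.

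Among 13109 genes above background on both of these arrays, Serpina4-ps1 had rank 21 and Slco1a1 rank 372 from the most negative gap. The 5 genes with the most negative gaps were Bhlha15 (-3.63), Mycn (-3.31), the stearoyl-CoA desaturase gene Scd1 (-3.27), Mirg (-3.01) and DXBay18 (-2.89). Among the genes with the most positive gaps were Acot3 (3.88), Pdk4 (3.66), Acot1 (3.17) and Cyp4a31 (2.84). These 4 are known targets of the fatty acid receptor PPARα in mouse liver. Scd1 was at -3.43 and -0.16 on the 2 CDAHFD arrays, against 4.70 and 4.33 on the control arrays of that week.

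Of the hepatocyte markers, 8 of 9 were higher in replicate 1, with a median gap of 0.20 and a range from -0.47 to 0.61. So were 9 of 10 macrophage markers (median gap 0.26) and 3 of 10 stellate cell markers (-0.18). The male-biased genes were split, 10 lower and 8 higher in replicate 1 with a median gap of -0.09. Of the female-biased genes 15 of 18 were higher in replicate 1 (median gap 0.55), of the growth hormone signalling genes 15 of 23 (0.21), and of the relatives of the 7 in their gene families 24 of 34 (0.13). The median gap of all genes was -0.01, but the share of all genes higher in replicate 1 was not counted. Without that share, these counts are not read as a result about any list. Some female-biased genes, Cyp2b13 and Slc22a26 among them, passed the filter only through the CDAHFD arrays at 6 weeks. Nothing in the labels distinguishes the 2 arrays, and no test is possible between single arrays.

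The weeks were also compared without the diet. Between the control arrays of 1, 2 and 6 weeks an F test in limma passed for 1 of the 7 genes, where 11.5% of all genes passed, so the count says nothing particular about the 7. That gene was Mup20 (adjusted p = 0.0452), whose bright probe differed from its 1-week level by -0.41 at 2 weeks and -0.73 at 6 weeks (SE 0.16), relative to all genes. Its call was lost under several settings, with an adjusted p of 0.22 without control replicate 1 at 1 week and of 0.671 after quantile normalization. The other Mup20 probe differed by -1.72 between 2 weeks and 1 week within the controls (SE 0.14), on the same slide. Serpina4-ps1 was 2.37 higher at 2 weeks than at 1 week (SE 0.85) and did not pass (F test, adjusted p = 0.182). The remaining 5 had adjusted p between 0.361 and 0.982 in this test, and the spread within groups limits what it could detect.

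Male-biased liver genes were low along with the 7. A list of 22 other genes known to be higher in males was set beside them, written with earlier results of these data known, and 18 were measured. Of these 13, 17 and 18 passed the test as lower at 1, 2 and 6 weeks and 0 as higher, where 15%, 14.9% and 16.2% of all genes passed as lower. Their medians were -1.25, -1.37 and -2.35. After quantile normalization 9, 15 and 17 passed as lower, and with the percentile over all probes 17, 17 and 18. The fatty acid elongase gene Elovl3 was at -4.16, -5.45 and -4.77 (SE 0.46, limma adjusted p = 0.000126 at 6 weeks). Cyp7b1, an oxysterol hydroxylase, was at -1.91, -2.38 and -3.58 (SE 0.32, limma adjusted p = 3.19e-05 at 6 weeks).

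The steroid-metabolising Cyp2d9 was at -1.69, -1.47 and -2.61 (SE 0.24) and passed at each week. Of further genes with large differences, Susd4 was at -1.86, -2.02 and -2.61 (SE 0.20), the glucuronosyltransferase Ugt2b1 at -1.40, -1.93 and -2.44 (SE 0.17), and Cspg5 at -2.99, -3.37 and -4.38 (SE 0.51). Cspg5 was below background in the CDAHFD arrays at 6 weeks, where it was at least 8.81-fold lower. Mup21, the gene next but one to Mup20 on chromosome 4, was at -1.24, -1.83 and -2.85 (SE 0.25), and Keg1 at -0.60, -1.93 and -2.62 (SE 0.33), the first of which did not pass. The complement gene C6 was at -0.52, -0.78 and -0.81 (SE 0.21) and passed at 2 and 6 weeks only. Those C6 calls were lost without control replicate 1 (-0.62) or either CDAHFD array at 2 weeks, and without control replicate 2 (-0.64) or CDAHFD replicate 1 (-0.69) at 6 weeks. Moxd1 passed at 1 and 6 weeks, at least 9.59-fold and 1.34-fold lower, and was below background in both diets at 2 weeks. The 6-week Moxd1 call was lost with normexp (-0.7) and without control replicate 2 (-1.87). The 1-week Mup21 call was lost after quantile normalization (-0.6) and without CDAHFD replicate 1 (-1.12).

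**Figure D4:**
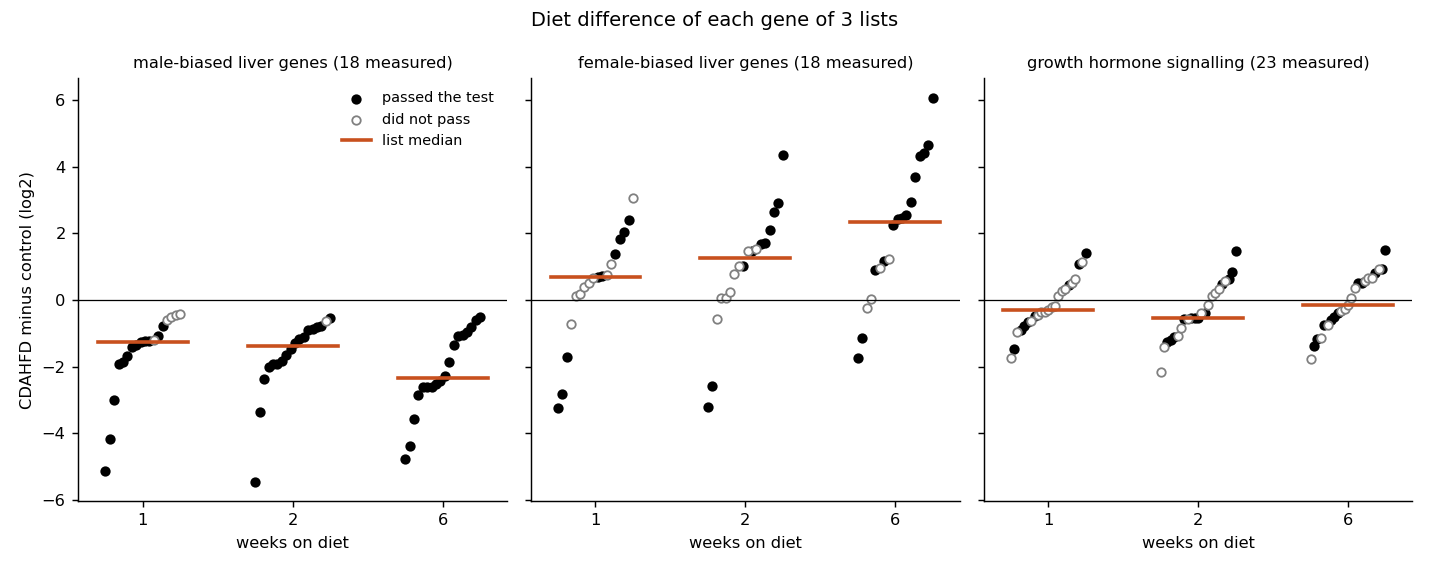
Diet difference (vertical axis, log2, CDAHFD minus control, less the all-gene median) of every measured gene of 3 lists at 1, 2 and 6 weeks on diet (horizontal axis), genes sorted by value within a week. Filled dots passed the limma test, open dots did not, and orange lines are list medians. All male-biased genes lie below 0 at each week, the female-biased medians are 0.68, 1.25 and 2.34, and the growth hormone signalling genes lie on both sides of 0.

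The female-biased liver genes differed in both directions, and their counts depended on the background correction. Of 27 written, 24 had a probe and 18 were measured. At 1, 2 and 6 weeks 6, 8 and 12 of the 18 passed as higher and 3, 2 and 2 as lower, where 25.9%, 22.9% and 24.5% of all genes passed as higher. The medians were 0.68, 1.25 and 2.34. With normexp 2, 2 and 6 passed as higher and 3, 2 and 2 as lower, and with the percentile over all probes 3 and 3 at 1 week. The count of 6 higher at 1 week was 3 without control replicate 1 or CDAHFD replicate 1 of that week. The count of 8 higher at 2 weeks was 5 without control replicate 1 or either CDAHFD array of that week. A gene of this list could pass the filter through the CDAHFD arrays alone, where it is high, so the shares are not those of all 27 genes.

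The drug-metabolising gene Cyp2b9 was below background in the controls of every week. It was at least 7.57-fold higher at 6 weeks (limma adjusted p = 4.53e-05) and Cyp2b13 at least 2.02-fold higher (limma adjusted p = 0.00037). The organic anion transporter gene Slc22a27 was at least 5.31-fold higher at 6 weeks. No control array of any week was above background for these 3 genes, so they were measured only through the CDAHFD arrays where they are high. Atp6v0d2, a proton pump subunit that macrophages also express, was at 2.04, 2.90 and 3.68 (SE 0.41). The peroxisomal transporter Abcd2 was below background on the control arrays at 1 and 6 weeks, where it was at least 2.83-fold and 3.7-fold higher, and at 1.67 at 2 weeks (SE 0.53), with 1 control array above background. With normexp the calls of Abcd2 at each week (0.06, 0.07 and 0.59) and the 6-week call of Cyp2b13 were lost. At 2 weeks Abcd2 also did not pass after quantile normalization (1.71), or without control replicate 1 (0.97) or CDAHFD replicate 1 (1.59) or 2 (1.74).

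Not all female-biased genes did so. Cyp3a41b was at -3.23, -3.22 and -1.73 (SE 0.22) and Cyp3a16 at -2.81, -2.59 and -1.13 (SE 0.19), and both passed as lower at each week. These cytochrome P450 genes are close copies of each other. Cyp17a1, of steroid synthesis, passed as lower at 1 week (-1.70, SE 0.28) and was at 0.07 and 0.02 at 2 and 6 weeks. Cyp3a44 and Cux2 had probes that were not kept, and Cyp3a41a was not measured.

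The list of growth hormone signalling genes, which also holds targets, differed in both directions. Of its 23 genes, 3, 4 and 5 passed as higher and 5, 8 and 6 as lower at 1, 2 and 6 weeks. Their medians were -0.31, -0.54 and -0.14. Of all genes, 25.9%, 22.9% and 24.5% passed as higher and 15%, 14.9% and 16.2% as lower. Either direction was called for 40.9%, 37.8% and 40.7% of all genes, so these counts are not read as a result about the list. With median centring 2, 4 and 3 passed as lower, and with normexp 0, 0 and 2 passed as higher. The count of 5 lower at 1 week was 3 without either CDAHFD array of that week. The count of 8 lower at 2 weeks was 5 without control replicate 1 or either CDAHFD array of that week, and that of 4 higher was 2 or 3 without any 1 of the 12 arrays. At 6 weeks the count of 6 lower was 2 without control replicate 1 and 3 without CDAHFD replicate 2, and that of 5 higher was 3 without either control array.

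Ghr, the growth hormone receptor, was at 1.81 and 1.85 on the CDAHFD arrays at 6 weeks, against 2.91 and 3.03 on the control arrays. Its differences were -0.49, -1.21 and -1.17 (SE 0.12), the first with a limma adjusted p of 0.033. That call was lost without control replicate 2 (-0.35) or CDAHFD replicate 1 (-0.40) or 2 (-0.58) of the week. It was also lost with median centring, and after quantile normalization and normexp, where the difference was -0.13 in each case. The other Ghr probe read -1.29, -1.70 and -1.78. Jak2, the kinase bound to the receptor, was higher at 1 and 6 weeks (0.45 and 0.51, SE 0.12) and at 0.21 at 2 weeks, where it did not pass. Both Jak2 calls were lost with the percentile over all probes, and the first also with normexp. Stat5b was at -0.67, -0.58 and -0.38 (SE 0.12) and passed as lower at each week, but at no week with median centring. Stat5a was at 0.13, 0.49 and 0.52 (SE 0.19) and passed at 2 and 6 weeks as higher. Both Stat5a calls were lost after quantile normalization and normexp, and also without CDAHFD replicate 1 of the week (0.39 at 2 weeks and 0.41 at 6 weeks). The 6-week call of Stat5b was lost under many settings, among them normexp (-0.21), the mean of probes (-0.28) and leaving out control replicate 1 or CDAHFD replicate 2 (-0.26 in each case).

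Of the targets, Igf1, the hormone that growth hormone makes the liver secrete, was at -1.48, -1.12 and -0.76 (SE 0.19) by its brightest probe. It passed at each week, though not at 6 weeks without control replicate 1 (-0.60) or CDAHFD replicate 2 (-0.55). Its other probes read -0.26, -1.01 and -0.53, then -0.57, -1.05 and -0.75, and last -1.27, -1.24 and -0.86. The size at 1 week thus depended on the probe. Igfals, which holds the Igf1 product in the circulation, was at -0.90, -1.25 and -1.38 (SE 0.25). It passed at each week, but not at 1 week without control replicate 1 (-0.68) or CDAHFD replicate 1 (-1.02) or 2 (-0.79). The pulse-responsive feedback inhibitors Socs2 (1.15, -0.84 and 0.57, SE 0.67), Socs3 (-0.95, -0.57 and -0.26, SE 0.54) and Cish (0.52, -1.40 and 0.06, SE 1.33) did not pass at any week, except Socs3 at 1 week without control replicate 2 (-1.79). Replicates were wide apart here: Cish was at 2.00 and -1.50 on the 2 control arrays at 2 weeks. Bcl6, a repressor of female-biased genes in male liver, was at -1.73, -0.15 and -1.76 (SE 0.96) and did not pass. Socs1, singled out after its values were seen, was at 1.42, 1.47 and 1.49 (SE 0.29) and passed at each week, though not after normexp.

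**Figure D5:**
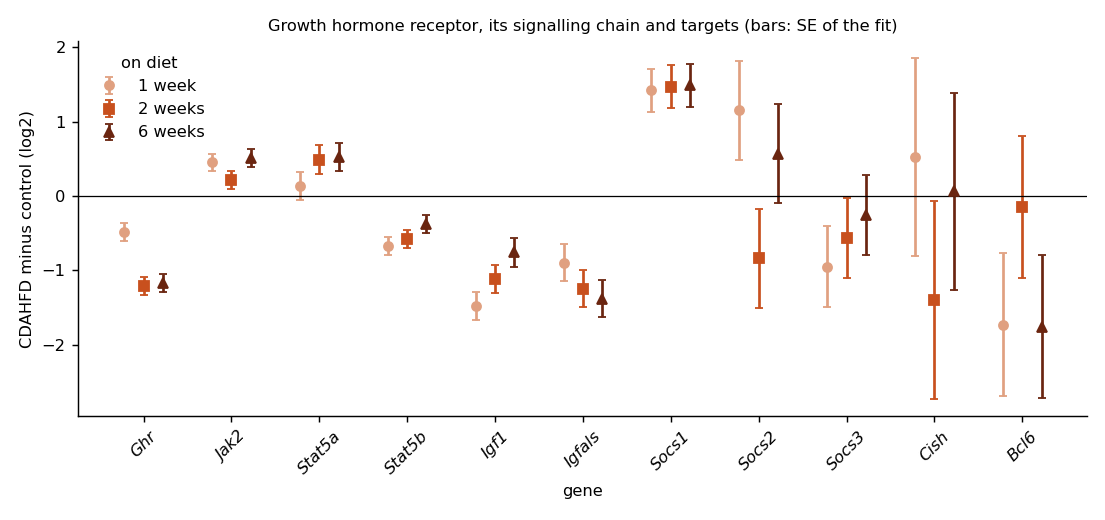
Diet difference (vertical axis, log2, CDAHFD minus control, less the all-gene median) of 11 genes of the growth hormone receptor, its signalling chain and its targets (horizontal axis), at 1, 2 and 6 weeks, with bars for the SE of the fit. Ghr, Stat5b, Igf1 and Igfals are below 0 at every week, Socs1 near 1.45 at each, and Cish and Bcl6 have wide bars.

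Relatives of the 7 in the same gene families were compared next. Of 34 measured, 18, 19 and 18 passed as lower and 2, 3 and 1 as higher at 1, 2 and 6 weeks, where 15%, 14.9% and 16.2% of all genes passed as lower. After quantile normalization 10, 16 and 15 passed as lower and 1, 4 and 1 as higher. Mup1, Mup3 and Mup21 are counted on the male-biased list too. The major urinary protein genes are near-identical copies, so they are not independent observations. Hsd3b2, Hsd3b3, Hsd3b6 and Hsd3b7 passed as lower at each week. Hsd3b2, the gene next to Hsd3b5 on chromosome 3, was at -1.39, -1.78 and -1.81 (SE 0.16), and Hsd3b3 at -1.38, -0.97 and -1.06 (SE 0.14). Hsd3b7, of bile acid synthesis, was at -0.87, -1.02 and -1.12 (SE 0.15), and its 1-week call was lost after quantile normalization (-0.26). None of the 4 was below -1.81 at any week, while Hsd3b5 was at -9.17 at 6 weeks.

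The Cyp4a relatives did not pass. Cyp4a10 was at -1.22, -0.63 and 0.18 (SE 0.99) and Cyp4a14 at 0.99, 0.34 and 1.34 (SE 1.24), and Cyp4a31 and Cyp4a32 did not pass either. Their replicates were wide apart: Cyp4a14 read 5.01 and 2.88 on the CDAHFD arrays at 6 weeks, against 3.39 and 1.76 on the control arrays. Cyp4b1 was at -0.60, -0.93 and -1.69 (SE 0.18) and passed at 2 and 6 weeks.

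The 6 measured major urinary protein genes on the list of relatives passed as lower at each week. Of others next to Mup20 on chromosome 4, Mup18 also passed at each week (-1.23, -0.79 and -0.53), Mup-ps16 passed at 1 and 2 weeks (-1.04, -0.66 and -0.47) and Mup19 at 1 week only (-0.97, -0.39 and -0.12). Of the 6, Mup6 was lowest, at -2.16, -2.77 and -3.86 (SE 0.24), Mup3 at -1.26, -1.28 and -1.35 (SE 0.14), and Mup1 at -1.23, -0.53 and -0.52 (SE 0.14). After quantile normalization the 1-week call of Mup21 (-0.6) and the 2-week call of Mup4 (-0.24) were lost. Mup1 was then at 0.13 at 2 weeks and its calls were lost. They were also lost at 2 weeks without control replicate 1 (-0.39) and at 6 weeks without control replicate 1 (-0.41) or CDAHFD replicate 2 (-0.49). Cross-reading between these copies was not tested.

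Among transporters, Slco1a4 was at 0.62, 0.04 and 0.76 (SE 0.39) and did not pass. Slco1b2 was read by a dim spot of control replicate 1 at 1 week. With the dim spots masked it was at -0.11, -0.94 and -1.17, and the last 2 passed (limma adjusted p = 0.00283 and 0.000594).

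The serpin neighbourhood on chromosome 12 was mixed. Serpina12 lies between Serpina9 and Serpina4-ps1 and was at -0.77, 0.50 and -1.70 (SE 0.79), without passing. It was below background on both control arrays at 2 weeks and on CDAHFD replicate 1 at 6 weeks, so these sizes are not measured ones. Without CDAHFD replicate 2 at 6 weeks it passed (-3.11), a value that rests on the array below background. On the outer sides, Serpina11 passed as lower at each week (-0.61, -0.73 and -0.81, SE 0.14). Its first call was lost after quantile normalization (-0.11), and without control replicate 1 (-0.49) or CDAHFD replicate 1 (-0.41). Serpina5 passed as higher at 2 weeks (1.78, SE 0.33), though not after normexp. Serpina1e, an alpha-1 antitrypsin gene, was at -1.10, -1.0 and -0.71 (SE 0.20) and passed at each week. Serpina6, which encodes the carrier of corticosteroids, passed as lower at 2 weeks (-0.76, SE 0.14), and Serpina10 did not pass (-0.47, -0.09 and 0.04, SE 0.20). Serpina7, the carrier of thyroxine, was higher at 1 and 2 weeks (2.74 and 1.90, SE 0.62), the second call being lost without any 1 of that week's arrays (1.71 to 2.08) and the first without CDAHFD replicate 1 (2.31). The 6-week call of Serpina1e was lost without control replicate 1 (-0.60) or CDAHFD replicate 2 (-0.59). Its 1-week call was lost after quantile normalization (-0.14).

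The genes whose pattern over the 12 arrays was most like the mean of the 7 were sought among all genes, by Pearson's r. Their r is a description, since all were followed over the same arrays and diet groups. The 10 highest were Mup21 (0.984), Dnase1l3 (0.982), Nudt7 (0.976), Insig1 (0.976), Stard4 (0.970), Olfr125 (0.969), Cadm4 (0.968), Kbtbd4 (0.966), Lrrc29 (0.965) and Cyp7b1 (0.965). Of the 7 themselves, Hsd3b5 and Slco1a1 were both at 0.976, Serpina9 at 0.961 and Serpina4-ps1 at 0.935. Cyp4a12a was at 0.783, Cyp4a12b at 0.779 and Mup20 at 0.678, so the mean follows the first 4 more closely. Each of the 7 takes part in that mean. Mup21, Nudt7 and Cyp7b1 are on the male-biased list, and Insig1 and Stard4 are known targets of the sterol sensor SREBP-2. Insig1 was at -0.67, -1.10 and -1.89 and Stard4 at -0.31, -0.89 and -1.93.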

How the data were processed

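Each array had 62976 spots and 55681 gene probes, with 0 saturated spots. The deposited values are linear spot intensities from Agilent Feature Extraction, per the file headers, already background-subtracted on each array but not scaled across arrays. Its version is 11.5.1.1 in the headers but 10.7 in the submitters' processing notes, and this was not settled. Labelling used 150 ng of RNA, per the labels' protocols.

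Control and outlier spots were left out, 54 values were missing, and spots of a probe were averaged. Probe accessions were named through RefSeq (GRCm38.p6, for names and gene order only, the array's design being on an older build): 28664 probes were named, with 21613 symbols, and 27017 were not. Intensities were taken as log2 and the 75th percentile over 20135 probes above background on all arrays was subtracted. Genes needed 1 probe well above background on the 2 arrays of some group, and were read by the brightest probe (13898 genes, 3616 with further kept probes). An array-level bound sets a probe below background to the lowest level called above it on that array, and a fold written as at least N-fold uses it in each array of the dimmer group. No replicates held identical values (0 probes).

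Diet within each week and weeks within controls were tested in limma 3.58.1 (R 4.3.3; lmFit, eBayes with trend and robust) on 6 group means, with 6 residual degrees of freedom and Benjamini-Hochberg adjustment at 0.05 over all genes, 2-sided; every adjusted p is from it, before the median of all genes is subtracted. It was tested on simulated data. The members and lists were chosen with earlier results of these data known. Named genes were the 7, set anchors of each list, those with the largest differences, 10 genes of like pattern and 5 in each direction of the gap; values of 2 genes that the lists count are not reported here. Alternatives were median centring, quantile normalization, the percentile over all probes, normexp (offset 50), other filters, the mean of probes, eBayes without trend, single weeks, a replicate block, dim spots masked and each array left out. Normexp used median signals, as mean signals were not used here. The number of arrays limits the precision.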

Additional observations from a re-analysis of the deposited data

Results flagged for a closer look

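Among the 7 genes and the lists of sex-biased, growth hormone signalling and related genes, at weeks with all 4 arrays above background, effects of opposite direction were sought. Cases with every CDAHFD array on one side of both controls at one week and on the other side at another numbered 3. Cell type markers were not searched, and the difference between weeks was not tested. The second Mup20 probe was at -1.04 at 1 week, 0.53 at 2 weeks and 0.53 at 6 weeks. Cyp17a1 was at -1.70 at 1 week and 0.02 at 6 weeks (SE 0.28), where it did not pass (limma adjusted p = 0.906). Cyp2a4 was at 0.11 at 1 week and -0.24 at 6 weeks (SE 0.12). It passed at neither week (limma adjusted p = 0.148 and 0.225). The other Cyp2a4 probe read 0.58, 0.6 and -0.02 at 1, 2 and 6 weeks.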

How the results depend on the processing

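Of 477 values of the 7 genes under alternatives, 434 moved by less than the spread of replicates, 35 by more and 8 reversed. Serpina4-ps1 at 1 week reversed to 0.07 (quantile), 0.17 (normexp), 0.09 (no filter), 0.01 (without control replicate 1) and 0.22 (without CDAHFD replicate 1), within a leave-one-out range of -0.57 to 0.22, and Mup20 to 0.09 at 2 weeks and 0.19 at 6 weeks (quantile) and to 0.11 at 6 weeks (mean of probes). Other reversals included Mup1 at 2 weeks (0.13, quantile) and, with normexp, Slc22a27 at 1 week (-0.27). The median of the 7 was -0.71 and -2.38 at 1 and 2 weeks with normexp. The median gap at 6 weeks, taken less the median gap of all genes, was -0.89. It became 0.09 when the filter on all arrays left 5 of the genes. Counts of growth hormone signalling genes became 5 at 1 week (median centring, normexp), 6 and 7 at 2 weeks (quantile, normexp) and 7 at 6 weeks (normexp, no filter). Female-biased counts became 5, 4 and 8 with normexp, and 6 and 7 at 2 and 6 weeks with the filter on all arrays. Relatives became 11 at 1 week (quantile). The 1 gene changing with weeks in controls became 0 with median centring, quantile normalization, all probes, no filter or eBayes without trend. The cause of these moves was not tested.

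Leaving out 1 array at a time gave members' medians of -1.33 to -0.85, -2.83 to -2.56 and -3.89 to -3.34. Counts at 1, 2 and 6 weeks were 5 to 8, 7 to 12 and 5 to 11 (growth hormone), 12 to 14, 14 to 17 and 16 to 18 (male-biased), 6 to 11, 7 to 11 and 12 to 14 (female-biased) and 16 to 21, 18 to 24 and 15 to 20 (relatives), and 0 to 1 for weeks in controls. Where an arm was left with 1 array, it was assumed to vary like the other groups. Growth hormone counts of 5 came without either CDAHFD array at 1 week and without control replicate 1 at 6 weeks. The replicate numbers share only a number (correlation of deviations -0.14 to 0.22); with them as a replicate block the counts of growth hormone signalling genes were 8, 13 and 10, and the male-biased counts were the same. The gap was not run with arrays left out, and the slide as a block was not run, since each week lies on 1 slide. Low probes near background limit the depth of the falls that could be measured.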
